A study of Mus musculus with 8 samples.

Results

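The genes described here are 10 enzymes and enzyme partners of prostaglandin and leukotriene synthesis: Ptgs1, Ptgs2, Tbxas1, Ptges, Ptgds, Hpgds, Alox5, Alox5ap, Ltc4s and Alox12. They were found by symbol among the 24346 genes of the deposited tables, and all 10 were listed. The list has no threshold on measured values, but it was drawn up with earlier results of these libraries known. The values and tests below therefore describe these genes, and their p-values are not independent evidence.

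RNA was sequenced from 8 libraries of mouse bone marrow cells, 2 in each of 4 groups, to compare hematopoietic stem cells (HSCs) and the broader LSK population after culture with or without red blood cells (RBCs). LSK cells were the Lin- Sca-1+ c-Kit+ fraction of the marrow and HSCs its CD48- CD150+ part, both from adult C57BL/6 mice of WT genotype. The 4 groups were HSCs alone, HSCs with RBCs, LSK cells alone and LSK cells with RBCs. All were kept for 1 day in the same serum-free SFEM medium with added cytokines. The RBCs came from C57BL/6J blood, were passed through a leukocyte filter and were irradiated. After culture the remaining RBCs were lysed and CD45+ cells were sorted, so the stem cell gate was applied before the culture and not after it. The labels do not say whether the 2 libraries of a group came from separate cultures or animals, and p-values may measure technical spread between them.

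Eicosanoids are signalling lipids made from arachidonic acid that phospholipases release from membranes. Cyclooxygenases turn it into prostaglandin H2, from which terminal synthases make thromboxane A2, prostaglandin E2 or prostaglandin D2. In the other branch, 5-lipoxygenase and its partner FLAP make leukotriene A4, which is turned into leukotriene B4 or C4. Prostaglandin E2 is known as a regulator of hematopoietic stem cells, platelets as a source of thromboxane, and mast cells as a source of prostaglandin D2 and leukotriene C4.

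The promoters of Ptgs1 and Alox5 are shown because these 2 genes had the widest range of group means among the 10, and a short site of Ptgds because it came next. RefSeq (GRCm38.p6) gave promoter sequence for 9 of the 10 genes. The lines below hold the 250 bases before the RefSeq start of Ptgs1 (chr2:36230176-36230425, + strand) and Alox5 (chr6:116461179-116461428, - strand), and 30 bases of Ptgds (chr2:25469815-25469844, - strand). The Ptgds stretch lies before the RefSeq start but inside the gene as placed by GENCODE M21 (chr2:25466709-25470046), which starts farther upstream. Capitals mark a match to GGGCGG, the core of a GC box, or to CACNAG, the N-box letters that factors of the Hes family are known to bind.
Ptgs1: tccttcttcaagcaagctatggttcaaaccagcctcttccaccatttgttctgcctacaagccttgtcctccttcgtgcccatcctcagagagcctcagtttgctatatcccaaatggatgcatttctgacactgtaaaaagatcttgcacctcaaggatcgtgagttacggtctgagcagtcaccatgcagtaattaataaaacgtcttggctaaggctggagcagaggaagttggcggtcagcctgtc
Alox5: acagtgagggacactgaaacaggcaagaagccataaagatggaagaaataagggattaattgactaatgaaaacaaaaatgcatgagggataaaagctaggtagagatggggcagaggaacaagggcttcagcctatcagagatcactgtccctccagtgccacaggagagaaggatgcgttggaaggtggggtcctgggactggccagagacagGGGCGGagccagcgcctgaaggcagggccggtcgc
Ptgds: tcacaccaacatCACGAGccttcagtgggc
Both strands were searched for CACNAG, for GGGCGG and for TATAAA. The Ptgs1 window had none of these letters and a GC content of 48.0%. The Alox5 window had 1 GGGCGG, 35 bases before the start, and a GC content of 52.8%. Ptgds had CACNAG 83 bases before its RefSeq start. These letters were not particular to Ptgds among the 10 genes: the Hpgds window had 4 matches and that of Ltc4s had 1. In 32851 RefSeq promoter windows of 250 bases, CACNAG was found in 36.7%, GGGCGG in 32.7% and TATAAA in 12.4%.

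Values are FPKM, fragment numbers corrected for sequencing depth and for the length of the transcript, which allow levels of different genes to be compared per length. For tests, log2(FPKM + 1) was fitted with limma over the 12003 genes that reached 1 FPKM in 2 or more libraries. A gene passed when its Benjamini-Hochberg adjusted p was under 0.05, and was called when it also differed by at least 2-fold. Of the 10 genes, 9 were tested. Ptgs2 was too low, and Alox12 entered only through 2 libraries with RBCs, so that some difference was built into its selection. The relative depth of the libraries lay between 0.886 and 1.13 times that of LSK replicate 1, and their absolute depth is unknown. An exact permutation test of 2 libraries against 2 cannot give a two-sided p under 0.333. In bulk RNA, fewer cells of a type and less RNA per cell cannot be told apart. Between LSK cells and HSCs without RBCs, the genes of the sorting antigens differed with the gate: Cd48 by 1.96 and Slamf1, which encodes CD150, by -1.03 on the log2 scale.

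The levels of the 10 genes covered a wide range. Alox5ap, the gene of FLAP, had the highest mean over the 8 libraries (211 FPKM, 541st of 24346 genes), followed by Tbxas1 (118 FPKM) and Ptgs1 (82.1 FPKM). Alox5 followed at 17.1 FPKM. Means were between 1.39 and 5.79 FPKM for Ptgds, Ltc4s, Hpgds and Ptges, and below 1 for Alox12 (0.737 FPKM) and Ptgs2 (0.403 FPKM). Of the 2 cyclooxygenase transcripts, Ptgs1 was thus far the higher, and of the 4 terminal synthases among the 10 genes the highest was Tbxas1, that of thromboxane synthase.

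**Figure D1:**
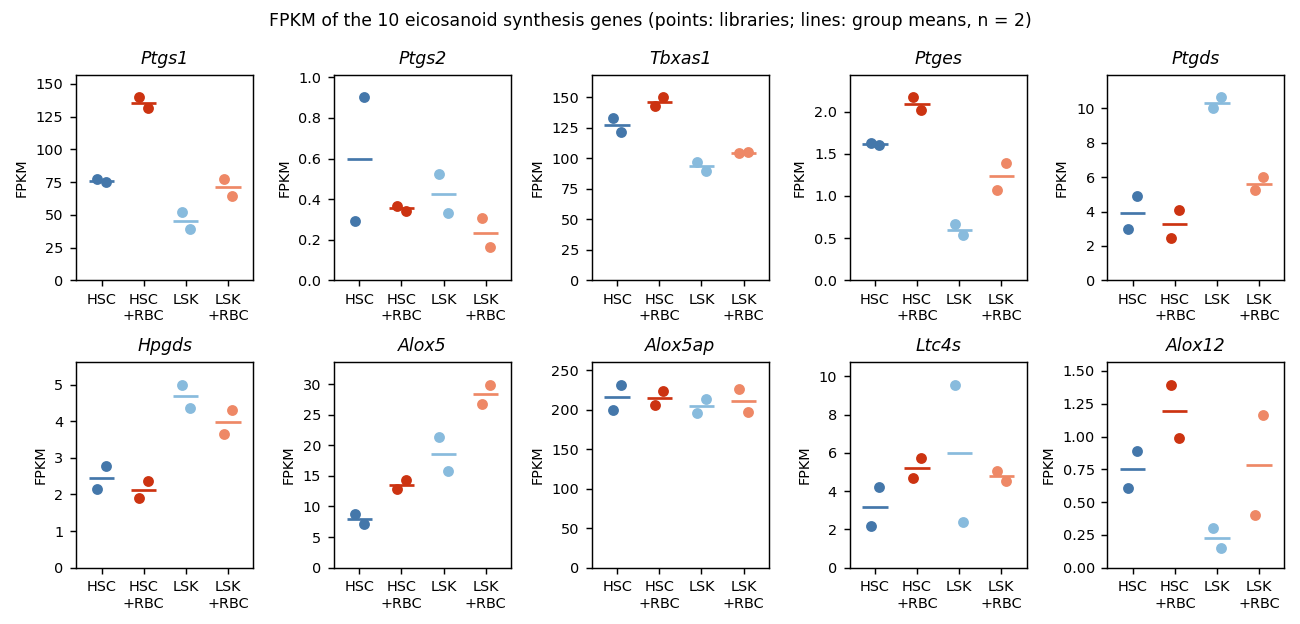
FPKM (y axis, from 0, a separate scale for each gene) of the 10 genes in each library (points) of the 4 groups, with group means (lines, n = 2). Ptgs1 was highest in HSCs with RBCs (139.7 and 132 FPKM), Alox5 in LSK cells with RBCs (26.8 and 29.9 FPKM) and Ptgds in LSK cells alone (10.03 and 10.6 FPKM), while Alox5ap lay between 195 and 231 FPKM in all 8 libraries.

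Culture with RBCs went with more Ptgs1 in both cell types, the only one of the 9 tested genes that passed for an RBC effect in either. Ptgs1 encodes cyclooxygenase-1, the constitutive enzyme that makes prostaglandin H2 (chr2:36230426-36252272, + strand, with Gm43621 annotated on the other strand). It had 77.3 and 74.8 FPKM in HSCs alone and 139.7 and 132 FPKM in HSCs with RBCs. In LSK cells it had 51.9 and 39.1 FPKM alone and 77.8 and 64.6 FPKM with RBCs. Libraries with RBCs lay above those without in both cell types, and HSCs lay above LSK cells in both conditions. HSCs alone and LSK cells with RBCs, the middle groups in the order of levels, overlapped.

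With RBCs, Ptgs1 rose by 0.83 on the log2 scale in HSCs (SE 0.13, 95% interval 0.534 to 1.12, limma adjusted p = 0.0122) and by 0.64 in LSK cells (SE 0.13, 95% interval 0.351 to 0.936, limma adjusted p = 0.0309). The difference between these effects was 0.18 (SE 0.183, limma adjusted p = 0.738). When all genes above 0 were tested, neither RBC effect of Ptgs1 passed (limma adjusted p = 0.0817 in HSCs and 0.115 in LSK cells). In HSCs, leaving out any 1 of the 4 HSC libraries took the adjusted p past the threshold, to between 0.0525 and 0.0948, with a log2 difference of 0.78 to 0.87. In LSK cells, the log2 difference was 0.44 without LSK replicate 2 (limma adjusted p = 0.126), 0.51 without LSK replicate 1 with RBCs (limma adjusted p = 0.187) and 0.78 without LSK replicate 2 with RBCs (limma adjusted p = 0.0683). In each cell type, 11 of 17 alternative fits gave an adjusted p under 0.05. Ptgs1 was lower in LSK cells than in HSCs, with a log2 difference of -0.74 without RBCs (limma adjusted p = 0.00597) and of -0.93 with RBCs (limma adjusted p = 0.00131). These 2 differences passed under each of 17 alternative fits.

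Ptgs2, the inducible cyclooxygenase-2 (chr1:150100031-150108227, + strand), was near the lower end of what the libraries could show. Its FPKM was 0.292 and 0.901 in HSCs, 0.367 and 0.342 in HSCs with RBCs, 0.522 and 0.330 in LSK cells, and 0.305 and 0.165 in LSK cells with RBCs. The FPKM steps put at least 8 to 43 reads behind these values. The highest value, in HSC replicate 2, stood beside the second lowest in the other HSC library, so no RBC effect could be read in HSCs. In LSK cells, both libraries with RBCs lay below both without, as they did for 26.4% of all tested genes. When all genes above 0 were tested, the RBC difference was -0.21 in HSCs (log2, limma adjusted p = 0.725). In LSK cells it was -0.21 as well (limma adjusted p = 0.71).

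Thromboxane synthase, encoded by Tbxas1 (chr6:38875404-39084585, + strand, overlapped on the other strand by Hipk2 and other genes), was higher in HSCs than in LSK cells. Tbxas1 had 133 and 122 FPKM in HSCs alone, 143 and 149.8 FPKM in HSCs with RBCs, 97.2 and 89.4 FPKM in LSK cells alone, and 104 and 105 FPKM in LSK cells with RBCs. The 4 groups did not overlap. LSK cells differed from HSCs by -0.45 without RBCs (log2, SE 0.0728, limma adjusted p = 0.00446) and by -0.48 with RBCs (log2, SE 0.0728, limma adjusted p = 0.00191), and both passed under each of 17 alternative fits. RBC libraries were higher in both cell types, but the log2 differences of 0.20 in HSCs (limma adjusted p = 0.26) and 0.16 in LSK cells (limma adjusted p = 0.276) did not pass.

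Ptges, the inducible microsomal prostaglandin E synthase (chr2:30889471-30929863, - strand, with the pseudogene Gm13400 on the same strand), had the same order of groups at a level near 1 FPKM. It had 1.63 and 1.61 FPKM in HSCs alone and 2.17 and 2.01 FPKM in HSCs with RBCs. LSK cells had 0.664 and 0.537 FPKM alone and 1.07 and 1.39 FPKM with RBCs. The log2 difference between LSK cells and HSCs was -0.71 without RBCs (SE 0.169, limma adjusted p = 0.0233), and -0.47 with RBCs (limma adjusted p = 0.0716). The former lost its pass without any 1 of the 4 libraries compared (limma adjusted p from 0.0649 to 0.115) and in a fit of those 4 alone (limma adjusted p = 0.0565). At a pseudocount of 0.1 it was -1.30 (limma adjusted p = 0.0228), which is past 2-fold. RBC effects of 0.24 in HSCs (limma adjusted p = 0.635) and 0.48 in LSK cells (limma adjusted p = 0.176) did not pass, although the groups did not overlap.

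The prostaglandin D2 synthases ran the other way between the cell types. Ptgds encodes the lipocalin-type enzyme (chr2:25466709-25470046, - strand) and Hpgds the hematopoietic one (chr6:65117293-65144908, - strand, with the pseudogene Gm17147 on the other strand). Ptgds had 2.97 and 4.88 FPKM in HSCs alone, 2.44 and 4.09 FPKM in HSCs with RBCs, 10.03 and 10.6 FPKM in LSK cells alone, and 5.23 and 6.03 FPKM in LSK cells with RBCs. Hpgds had 2.15 and 2.78 FPKM in HSCs alone, 1.90 and 2.37 FPKM in HSCs with RBCs, 5.0 and 4.36 FPKM in LSK cells alone, and 3.64 and 4.30 FPKM in LSK cells with RBCs. Every LSK library was above every HSC library for both genes, and the HSC groups with and without RBCs overlapped.

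Ptgds was called in LSK cells against HSCs without RBCs, with a log2 difference of 1.23 (SE 0.229, 95% interval 0.712 to 1.75, limma adjusted p = 0.00809). Without LSK replicate 2 its adjusted p was 0.052, and without HSC replicate 1 the log2 difference was 0.95, under 2-fold. With RBCs the log2 difference was 0.66 (limma adjusted p = 0.0653). Both LSK libraries with RBCs were below both without, but the log2 difference of -0.78 (SE 0.229, 95% interval -1.29 to -0.259) did not pass (limma adjusted p = 0.110), and in HSCs it was -0.21 (limma adjusted p = 0.79). The difference between these effects was 0.57 (SE 0.324, limma adjusted p = 0.516).

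Hpgds was higher in LSK cells by 0.72 without RBCs (log2, SE 0.171, limma adjusted p = 0.0237) and by 0.67 with RBCs (log2, SE 0.171, limma adjusted p = 0.0208). These lost their pass without HSC replicate 1, LSK replicate 1 or LSK replicate 2 (limma adjusted p from 0.0653 to 0.117), and without HSC replicate 1 with RBCs, LSK replicate 1 with RBCs or LSK replicate 2 with RBCs (limma adjusted p from 0.0514 to 0.129). They also lost it when all genes above 0 were tested (limma adjusted p = 0.0695 without RBCs and 0.0566 with RBCs), and the former in a fit of the 4 libraries alone (limma adjusted p = 0.0562). Its RBC differences were -0.14 in HSCs (limma adjusted p = 0.817) and -0.19 in LSK cells (limma adjusted p = 0.605).

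In the leukotriene branch, Alox5 was called in LSK cells against HSCs in both conditions. Alox5 encodes 5-lipoxygenase, which starts leukotriene synthesis (chr6:116410077-116461178, - strand). It had 8.79 and 7.12 FPKM in HSCs alone and 12.8 and 14.3 FPKM in HSCs with RBCs. In LSK cells it had 21.4 and 15.8 FPKM alone and 26.8 and 29.9 FPKM with RBCs. The 4 groups did not overlap, and were ordered, from the lowest, as HSCs alone, HSCs with RBCs, LSK cells alone and LSK cells with RBCs.

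Alox5 was higher in LSK cells by 1.12 without RBCs (log2, SE 0.155, 95% interval 0.773 to 1.47, limma adjusted p = 0.00183) and by 1.01 with RBCs (log2, SE 0.155, 95% interval 0.662 to 1.36, limma adjusted p = 0.00203). Both differences passed the adjusted p under each of 17 alternative fits, but lay close to the 2-fold limit. Without RBCs the value was 0.99 without HSC replicate 2 and 0.92 without LSK replicate 1. With RBCs it was 0.94 without HSC replicate 1 with RBCs and 0.94 without LSK replicate 2 with RBCs. The RBC differences of Alox5 were 0.70 in HSCs (SE 0.155, limma adjusted p = 0.0516) and 0.59 in LSK cells (SE 0.155, limma adjusted p = 0.0784), neither of which passed. In HSCs, 4 of 17 alternative fits gave an adjusted p under 0.05, over a range of 0.0315 to 0.259.

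Alox5ap encodes FLAP, the membrane protein that presents arachidonic acid to 5-lipoxygenase (chr5:149264767-149288153, + strand, with Gm19719 antisense to it). Alox5ap had 199.6 and 231 FPKM in HSCs alone, 205 and 223 FPKM in HSCs with RBCs, 195 and 213 FPKM in LSK cells alone, and 226 and 196 FPKM in LSK cells with RBCs. All groups overlapped. The RBC difference was -0.005 in HSCs (log2, 95% interval -0.223 to 0.213) and 0.05 in LSK cells (log2, 95% interval -0.171 to 0.265). Between LSK cells and HSCs the 95% interval was -0.294 to 0.142 without RBCs and -0.242 to 0.194 with RBCs, both on the log2 scale.

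Ltc4s, leukotriene C4 synthase (chr11:50236461-50238616, - strand, with Gm26542 antisense to it), rested on at least 12 to 47 reads per library. It had 2.17 and 4.19 FPKM in HSCs alone, 4.68 and 5.75 FPKM in HSCs with RBCs, 9.56 and 2.38 FPKM in LSK cells alone, and 5.05 and 4.55 FPKM in LSK cells with RBCs. The spread between the 2 LSK libraries alone spanned all but the lowest of the other values. Its RBC difference was 0.61 in HSCs (log2, SE 0.443, limma adjusted p = 0.643) and -0.04 in LSK cells (limma adjusted p = 0.973). LSK cells and HSCs differed by 0.56 without RBCs (limma adjusted p = 0.453) and by 1.38 (limma adjusted p = 0.0269) when LSK replicate 2 was left out.

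Alox12, the 12-lipoxygenase known from platelets (chr11:70241457-70255353, - strand), rested on at least 6 to 51 reads per library. It had 0.608 and 0.890 FPKM in HSCs alone, 1.40 and 0.991 FPKM in HSCs with RBCs, 0.301 and 0.147 FPKM in LSK cells alone, and 0.402 and 1.17 FPKM in LSK cells with RBCs. RBC libraries lay above those without in both cell types. The log2 differences of 0.33 in HSCs (limma adjusted p = 0.653) and 0.51 in LSK cells (limma adjusted p = 0.296) did not pass.

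Of the 9 tested genes, Alox12 is left out of the counts and medians of this paragraph and the next, since only libraries with RBCs brought it into the test. Among the other 8 genes, RBC libraries lay above those without for Ptgs1, Tbxas1, Ptges and Alox5 in both cell types. In HSCs, 5 genes were higher without overlap, these 4 and Ltc4s, where 19.9% of all tested genes were, and 0 were lower, where 21.8% of all were. In LSK cells, 4 were higher, where 24.2% of all tested genes were, and 2 were lower (Ptgds and Hpgds), where 26.4% were. The adjusted p passed for 1 gene in HSCs (2.53% of all tested genes passed) and for 1 in LSK cells (3.45% of all). By limma 0 were called at 2-fold in HSCs (0.775% of all tested genes) and 0 in LSK cells (1.01% of all), while 3 and 4 had an unadjusted p under 0.05, where 13.7% and 18.6% of all tested genes did. In HSCs, the median log2 difference was 0.22 for the 8 genes and -0.0062 for all tested genes. In LSK cells, these medians were 0.10 and -0.0095. None passed for a difference between the RBC effects, where 0 had an unadjusted p under 0.05 by limma and 0.133% of all tested genes passed, 0.108% with a 2-fold difference.

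Between the cell types without RBCs, 6 of these 8 genes passed, where 14.2% of all tested genes did. They were Ptgds, Hpgds and Alox5, higher in LSK cells, and Ptgs1, Tbxas1 and Ptges, higher in HSCs. With RBCs, 4 passed, where 24.4% of all tested genes did: Hpgds and Alox5, higher in LSK cells, and Ptgs1 and Tbxas1, higher in HSCs. Calls at 2-fold were 2 without RBCs (2.66% of all tested genes) and 1 with RBCs (3.61% of all). Without RBCs, 3 genes were higher without overlap (28% of all tested genes) and 3 lower (26.9%). With RBCs these were 3 (33.7%) and 3 (33.1%). The comparisons of cell types and those of RBCs use the same libraries and are not independent of each other.

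**Figure D2:**
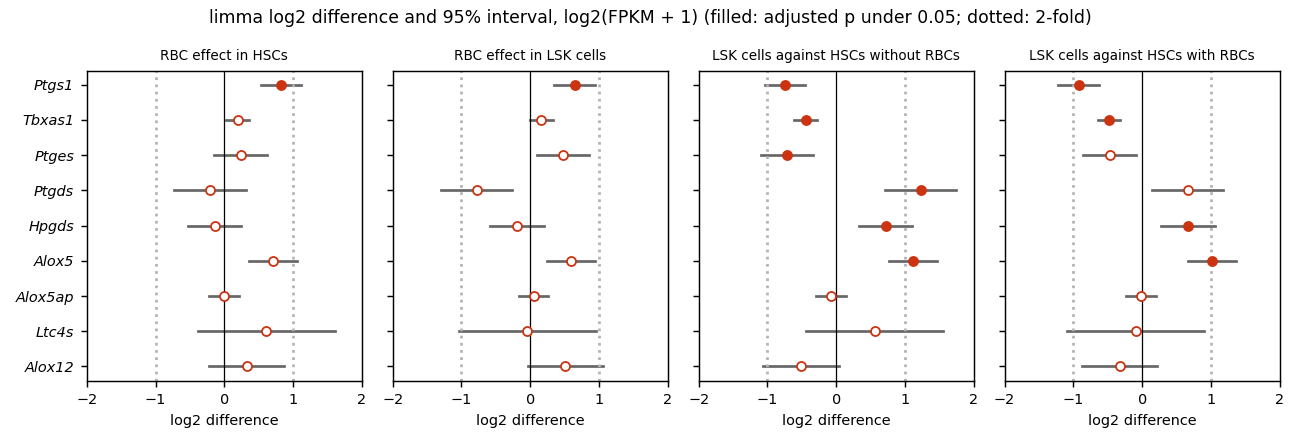
limma log2 differences (x axis, log2(FPKM + 1) scale) of the 9 tested genes with 95% intervals in 4 comparisons; filled points have an adjusted p under 0.05 and dotted lines mark 2-fold. Ptgs1 is filled in all 4 panels, at 0.83 and 0.64 for RBCs and at -0.74 and -0.93 for LSK cells against HSCs, and Alox5 lies past the dotted line in both cell type panels, at 1.12 and 1.01.

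The genes whose pattern over the 8 libraries was most like that of the 3 widest-ranging genes were picked from the 12002 other tested genes by Pearson correlation of log2(FPKM + 1). The libraries fall into groups, so these values describe shared group levels. For Alox5 they were Slc35d3, Adprhl1 and Tgfbr2 (each r = 0.986). Adprhl1 was a low gene that reached 1 FPKM only in LSK cells with RBCs (1.044 and 1.335 FPKM). Alox5 was also highest there, so part of this likeness was built into the filter. Slc35d3 ran from 4.33 FPKM in HSCs alone to 47.4 FPKM in LSK cells with RBCs. For Ptgs1 they were Slc44a1 (r = 0.977), Rasd1 (r = 0.973) and Lepr (r = 0.971). Lepr, the leptin receptor, had 1.58 and 1.82 FPKM in HSCs alone and 4.56 and 6.22 FPKM in HSCs with RBCs. For Ptgds they were Hyal3 (r = 0.980), Hormad2 (r = 0.979) and Gm38426 (r = 0.967).

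Around these enzymes, 52 other genes of eicosanoid release, maturation, export, breakdown and response were listed, of which 28 were tested. Ggt5, a gamma-glutamyl transferase that turns leukotriene C4 into D4, was the only one to pass for RBCs in HSCs, where it was also called. It had 1.77 and 1.60 FPKM in HSCs alone and 5.11 and 4.62 FPKM with RBCs, a log2 difference of 1.13 (SE 0.168, limma adjusted p = 0.00979). It was not called without HSC replicate 2 (limma adjusted p = 0.067) or without HSC replicate 1 with RBCs (limma adjusted p = 0.0866). In LSK cells it had 2.58 and 2.16 FPKM alone and 4.04 and 5.32 FPKM with RBCs, a log2 difference of 0.75 (limma adjusted p = 0.0462), which held in 2 of 17 alternative fits.

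In LSK cells, 4 of the 28 rose with RBCs and 1 fell, where 3.45% of all tested genes passed. Cyp4f18, which breaks down leukotriene B4, was the only one called. It had 1.43 and 1.01 FPKM in LSK cells alone and 4.79 and 2.88 FPKM with RBCs, a log2 difference of 1.10 (SE 0.222, limma adjusted p = 0.0313). It lost the call without LSK replicate 1, LSK replicate 2, LSK replicate 1 with RBCs or HSC replicate 1 with RBCs (limma adjusted p from 0.05 to 0.169). The others that rose were Mgst2 (0.98, limma adjusted p = 0.0339), a microsomal transferase that can also make leukotriene C4, Ggt5, and Cotl1 (0.45, limma adjusted p = 0.016), a binding partner of 5-lipoxygenase. Tbxa2r, the thromboxane receptor, fell, with a log2 difference of -0.59 (limma adjusted p = 0.0316), from 13.3 and 13.7 FPKM to 7.71 and 9.65 FPKM. These also lost their pass in some fits without 1 library, the highest limma adjusted p being 0.187 for Mgst2, 0.122 for Cotl1 and 0.175 for Tbxa2r.

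Between the cell types, 9 of the 28 passed without RBCs (5 higher and 4 lower in LSK cells), where 14.2% of all tested genes did, and 13 with RBCs (7 higher and 6 lower), where 24.4% did. Cyp4f18 and Ptgir, the prostacyclin receptor, reached 1 FPKM in LSK libraries alone, so that part of their difference was built into the filter. Mgst2 had 5.77 and 7.92 FPKM in HSCs alone against 12.4 and 17.5 FPKM in LSK cells alone, and 4.67 and 3.23 FPKM against 29.8 and 30.4 FPKM with RBCs. Its log2 differences were 1.02 without RBCs (limma adjusted p = 0.0108) and 2.67 with RBCs (limma adjusted p = 5.46e-05). The former was not called without HSC replicate 1 (0.82, limma adjusted p = 0.0569) or LSK replicate 2 (0.78, limma adjusted p = 0.0759).

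Ltb4r1, the high-affinity leukotriene B4 receptor, had 0.917 and 0.0700 FPKM in HSCs alone, 1.10 and 1.25 FPKM in HSCs with RBCs, 3.68 and 3.48 FPKM in LSK cells alone, and 7.57 and 5.91 FPKM in LSK cells with RBCs. It was called in LSK cells against HSCs without RBCs (1.68, limma adjusted p = 0.00334) and with RBCs (1.82, limma adjusted p = 0.00137). At a pseudocount of 0.1, the value without RBCs was 3.14 and that with RBCs 2.42. Cyp4f18, which the LSK libraries brought into the test, had a log2 difference of 1.59 with RBCs (limma adjusted p = 0.00131), and of 2.50 at a pseudocount of 0.1.

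By role, 5 of 12 phospholipase genes were tested, 5 of 6 other prostanoid synthases, 0 of 5 other lipoxygenases, 6 of 8 genes of leukotriene maturation, 5 of 8 of export and breakdown, 5 of 9 prostanoid receptors and 2 of 4 leukotriene receptors. The highest in each role were Pla2g4a, the cytosolic phospholipase that releases arachidonic acid (43.6 to 71.1 FPKM), Ptges3, a prostaglandin E synthase and cochaperone (256 to 309 FPKM), Alox15 (at most 0.524 FPKM), Lta4h, leukotriene A4 hydrolase (112 to 167 FPKM), Ptgr2, a prostaglandin reductase (30.0 to 44.6 FPKM), Ptger3, a prostaglandin E2 receptor (15.0 to 34.5 FPKM), and Cysltr2, a cysteinyl leukotriene receptor (1.59 to 6.55 FPKM). Pla2g4a was lower in LSK cells by a log2 difference of -0.27 without RBCs (limma adjusted p = 0.0263) and of -0.65 with RBCs (limma adjusted p = 0.000279). Lta4h was lower as well, by a log2 difference of -0.40 (limma adjusted p = 0.00525) and of -0.51 (limma adjusted p = 0.000951). Ptger3 was lower by a log2 difference of -0.54 (limma adjusted p = 0.0298) and of -0.94 (limma adjusted p = 0.00161).

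**Figure D3:**
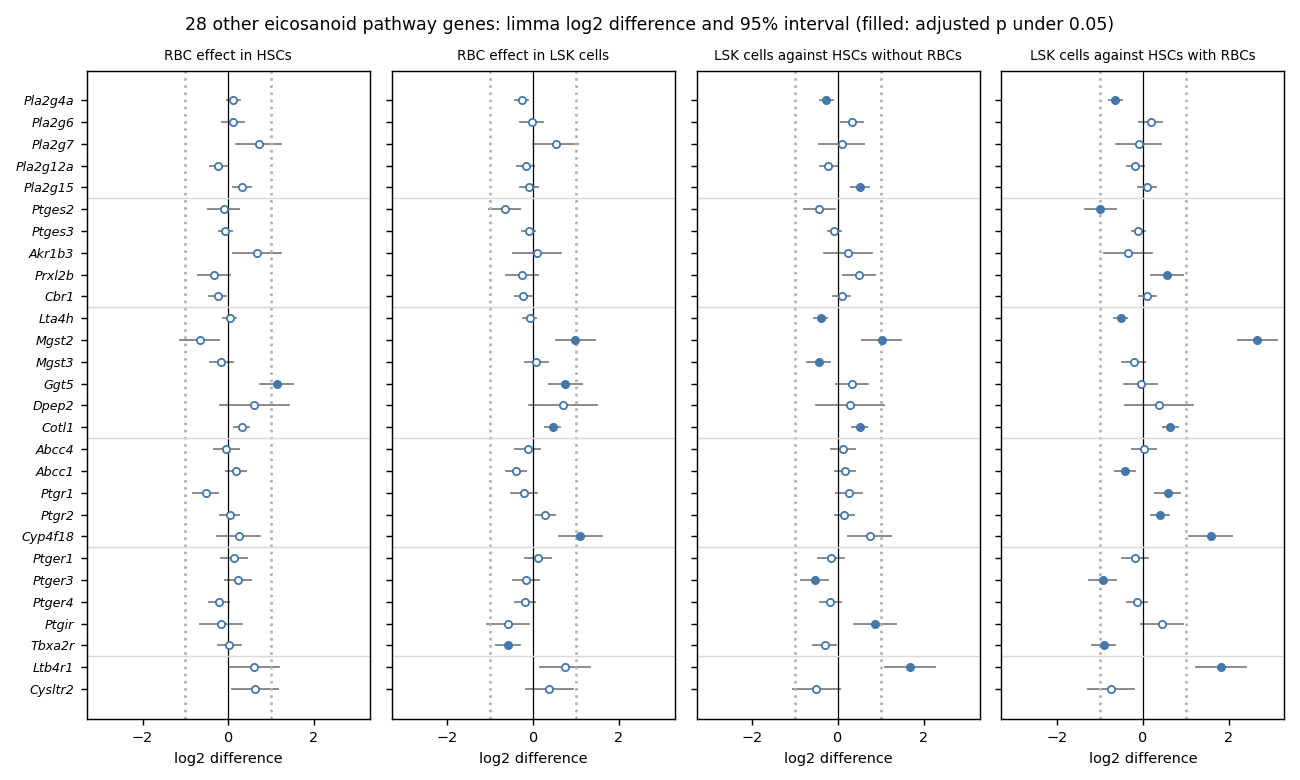
limma log2 differences (x axis) of the 28 tested pathway genes, grouped by role between grey lines, with 95% intervals in 4 comparisons; filled points have an adjusted p under 0.05 and dotted lines mark 2-fold. Ggt5 stands past 2-fold for RBCs in HSCs at 1.13, and Mgst2 is the farthest point between the cell types with RBCs at 2.67.

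Markers of mature cells moved with the groups, and since several of the 10 enzymes are known from such cells, the summed FPKM of each marker list is given beside them. The 10 mast cell and basophil genes summed to 6.37 and 8.11 FPKM in HSCs alone, 1.70 and 1.78 in HSCs with RBCs, 29.9 and 46.8 in LSK cells alone, and 102 and 39.9 in LSK cells with RBCs, with Cma1 at 0 in every library. This sum was higher in LSK cells, as were Ptgds, Hpgds and Alox5. A few genes carried it: Cpa3 had 17.85 and 26 FPKM in LSK cells alone and 27.14 and 28.99 FPKM with RBCs. Prss34 had 52.4 FPKM in LSK replicate 1 with RBCs and 0.646 FPKM in LSK replicate 2 with RBCs. Without RBCs, 5 of the 10 markers were higher in LSK cells without overlap (28% of all tested genes) and 0 lower (26.9%). Fcer1a and Gzmb overlapped there. In HSCs, 0 were higher with RBCs (19.9%) and 4 lower (21.8%). Of these 4, Fcer1a had a log2 difference of -1.99 (limma adjusted p = 0.00598). In LSK cells, 4 were higher with RBCs (24.2%) and 1 lower (26.4%), while Ptgds and Hpgds were both lower. Of these 10 markers, 6 were high enough to be tested. Hdc, Mcpt8, Prss34 and Gzmb reached 1 FPKM in LSK libraries alone, Gzmb only in those with RBCs. Part of their difference was thus built into the filter. The 10 neutrophil genes summed to 8.54 to 10.6 FPKM in HSCs alone, 46.4 to 254 with RBCs, 129 to 221 in LSK cells alone, and 366 to 572 with RBCs, the same order of groups as Alox5 by mean. Of these neutrophil genes, 8 of 10 were higher in both RBC libraries in each cell type, where 19.9% of all tested genes were in HSCs and 24.2% in LSK cells. Mmp8 and Mmp9 reached 1 FPKM in LSK libraries alone, Mmp9 only in those with RBCs, so part of their difference was built into the filter.

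The 10 megakaryocyte and platelet genes, with Gp6 at 0 in every library, summed to 217 to 257 FPKM in HSCs alone, 227 to 255 with RBCs, 141 to 234 in LSK cells alone, and 123 to 142 with RBCs. In HSCs, 5 of 10 were higher in both RBC libraries (19.9% of all tested genes), as was Ptgs1, and 2 were lower (21.8%). Those that passed were Gp1ba (log2 difference 1.15, limma adjusted p = 0.0136) and Itgb3 (0.88, limma adjusted p = 0.013), while Pf4 and Gp9, the lower ones, differed by -0.33 (limma adjusted p = 0.839) and -0.57 (limma adjusted p = 0.231). In LSK cells, where Ptgs1 also rose, 3 were higher (24.2% of all tested genes) and 2 lower (26.4%). Among the lower ones, Pf4 had a log2 difference of -2.06 (limma adjusted p = 0.0376). Its values were 129.6 and 37.8 FPKM in LSK cells alone and 13.55 and 19.05 FPKM with RBCs. Most of the spread of the list's sum between the LSK libraries alone came from Pf4. The 10 monocyte and macrophage genes summed to 402 to 436 FPKM in HSCs alone, 331 to 334 with RBCs, 279 to 366 in LSK cells alone and 498 to 616 with RBCs, with C1qa at 0 in every library. Lyz2 made up most of this sum, at 312 and 321 FPKM in HSCs alone and 221 and 218 FPKM with RBCs. In HSCs, 4 of the 10 were higher in both RBC libraries (19.9% of all tested genes) and 1 lower (21.8%). Csf1r rose there by 1.32 (limma adjusted p = 0.0121). In LSK cells, 7 were higher (24.2% of all tested genes) and 0 lower (26.4%). Csf1r rose there by 1.44 (limma adjusted p = 0.00753) and Ccr2 by 2.37 (limma adjusted p = 0.000577). Only 5 of the 10 were high enough to be tested, and the counts include low genes, Mertk in both cell types and Adgre1 in LSK cells.

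Red blood cell genes (8 of 10 listed) summed to 282 to 338 FPKM in HSCs alone, 299.5 to 308 with RBCs, 111 to 177 in LSK cells alone and 119 to 184 with RBCs. Their members moved in different directions within this sum, and the globin genes are near-identical copies whose reads may be split uncertainly. Hba-a1 had 0.0826 and 1.40 FPKM in HSCs alone and 116 and 88.7 FPKM with RBCs, a log2 difference of 5.99 (limma adjusted p = 3.82e-05), and rose by 4.16 in LSK cells (limma adjusted p = 0.000466). Hbb-b1 (3.97, limma adjusted p = 0.000405) and Alas2 (1.43, limma adjusted p = 0.0174) also rose in HSCs, Alas2 having entered the test through RBC libraries alone. In LSK cells Hbb-b1 was lower with RBCs (log2 difference -1.24, limma adjusted p = 0.0795), from 0.907 and 2.12 FPKM to 0.0438 and 0.0145 FPKM. Of the 8 listed, 4 were higher with RBCs in HSCs (19.9% of all tested genes) and 1 lower (21.8%). In LSK cells 5 were higher (24.2%) and 1 lower (26.4%). Hbb-b2, the highest of the list, had 278.5 and 335 FPKM in HSCs alone and 120.3 and 158.5 FPKM with RBCs (log2 difference -1.14, limma adjusted p = 0.157). B cell genes summed to 34.7 to 51.6 FPKM and T cell genes to 0.214 to 1.06 FPKM over the 8 libraries. The part of any of these cells in the results was not tested.

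**Figure D4:**
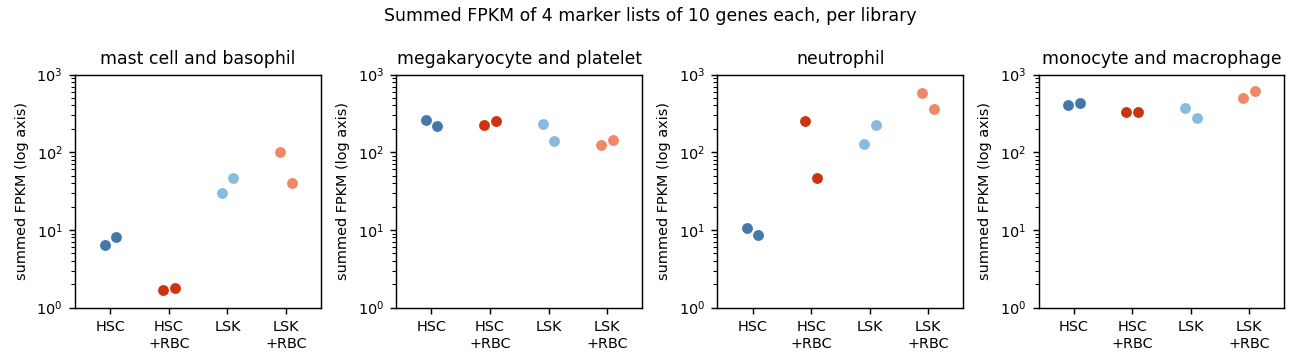
Summed FPKM (y axis, log scale) of 4 marker lists of 10 genes each in the 8 libraries (points) by group. The mast cell and basophil sum lies between 1.70 and 8.11 in HSC libraries and between 29.9 and 102 in LSK libraries, and the neutrophil sum is lowest in HSCs alone, at 8.54 and 10.6.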

How the data were processed

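RNA of CD45+ cells from 8 libraries was measured by full-length cDNA sequencing. The authors deposited 1 table of FPKM values per library, unpooled. The submitters' processing notes name TopHat2 2.1.1, Bowtie2 2.2.8, SAMtools 0.1.18, Cuffdiff 2.2.1 and build mm10. The annotation is not given in the sources used here, nor is strand-specific counting, so reads of overlapping genes on opposite strands cannot be told apart. FPKM is already scaled for transcript length and depth.

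From the deposited values, log2(FPKM + 1) was fitted with limma 3.58.1 (R 4.3.3), with 1 mean for each of the 4 groups and a mean-variance trend (residual df 4, prior df 5.18), for genes that reached 1 FPKM in 2 or more libraries. A fold change on this scale understates that of low genes. The procedure was tested on simulated data. Groups came from the sample titles. The 10 genes, the pathway and marker lists and the tests were chosen with earlier results of these data known. Named pathway genes are those called in a comparison and the highest of each role by mean FPKM. Other genes are named beside a result they move with, and were chosen after their values were seen, as were the pathway genes that passed without being called. Alternatives covered the trend, the fold threshold, the pseudocount, the filter, the scaling, a replicate block, fits of the compared groups alone and each library left out in turn.

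Relative depth and numbers of reads were read from the steps of low FPKM values, within 0.02 reads, and held for 87.9% of low genes. These numbers are lower bounds and cover counting error only, so the absolute depth and the precision it gives are unknown. Positions are from GENCODE M21 (GRCm38) and promoters from RefSeq (GRCm38.p6). Prxl2b is listed as Fam213b.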

Additional observations from a re-analysis of the deposited data

Results flagged for a closer look

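Among the 28 tested pathway genes, 3 had both RBC libraries on one side of the libraries without RBCs in HSCs and on the other side in LSK cells. Of all tested genes, 19.9% were higher and 21.8% lower without overlap in HSCs, and 24.2% and 26.4% in LSK cells. The share of all tested genes with opposite sides was not counted, so the 3 cannot be called particular to this pathway. The difference of the RBC effects, HSCs minus LSK cells, was 0.374 for Pla2g4a (log2, SE 0.0946, limma adjusted p = 0.185), -1.651 for Mgst2 (SE 0.286, limma adjusted p = 0.0744) and 0.574 for Abcc1 (SE 0.146, limma adjusted p = 0.187). None of these 3 differences passed the adjusted threshold, and none of the 10 enzymes showed such a split.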

How the results depend on the processing

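With 2 libraries per group and an unknown absolute depth, low genes (Ptgs2, Alox12, Ltc4s, Ptges) are the least precise, and each fit without 1 library assumes that the lone library left in its group varies like the other groups. The comparisons are given in the order RBCs in HSCs, RBCs in LSK cells, LSK cells against HSCs without RBCs, and the same with RBCs.

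Without a fold threshold, 1, 1, 6 and 4 of the 10 genes were called, and of the pathway genes 5 for RBCs in LSK cells, 9 and 13. Quantile normalization left 0 of the 10 genes between the cell types with RBCs, because Alox5 came to 0.978, and 1 pathway gene between the cell types without RBCs. With all genes above 0, pathway genes called were 0, 0 and 1 in the first 3 comparisons. A pseudocount of 0.1 gave 3 of the 10 genes between the cell types without RBCs, with Ptges added. A pseudocount of 0.5 gave 2 pathway genes for RBCs in LSK cells and 4 between the cell types without RBCs, and a fit of the LSK groups alone gave 0. Leaving out 1 library gave 0 to 0, 0 to 0, 1 to 2 and 0 to 2 of the 10 genes, and 0 to 1, 0 to 1, 1 to 2 and 3 to 6 pathway genes; for the difference of RBC effects it gave 0 to 0 of both.

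Signs turned only for values that had not passed. With quantile normalization, Alox5ap came to 0.017 for RBCs in HSCs, 0.019 between the cell types without RBCs and 0.080 with RBCs. With a pseudocount of 0.1, Ltc4s came to 0.001 for RBCs in LSK cells. With 1 library left out, log2 differences ranged from -0.49 to 0.076 for Ptgds and RBCs in HSCs. For Alox5ap they ranged from -0.111 to 0.102, -0.054 to 0.148, -0.183 to 0.031 and -0.125 to 0.077. For Ltc4s they ranged from -0.866 to 0.78 for RBCs in LSK cells, -0.265 to 1.381 without RBCs and -0.221 to 0.029 with RBCs. The differences of RBC effects ranged from -0.017 to 0.383 (Ptgs1), -0.08 to 0.184 (Hpgds), -0.029 to 0.1 (Tbxas1), -0.096 to 0.317 (Alox5), -0.5 to 0.127 (Alox12), -0.159 to 0.054 (Alox5ap) and -0.169 to 1.476 (Ltc4s). The cause of these changes was not tested.

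Deviations of same-numbered libraries from their group means correlated at -0.067 to 0.0954, so no shared deviation was seen. These values cannot tell whether such libraries shared an animal or a culture, which the labels do not say. With the number as a replicate block, calls over all genes were 93, 106, 320 and 435 in place of 93, 121, 319 and 433, and 8 in place of 13 for the difference of RBC effects, while 0, 0, 2 and 1 of the 10 genes and 1, 1, 2 and 3 pathway genes were called, as without it.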
